A study of Mus musculus with 24 samples.

Results

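Gene expression 5 days after sciatic nerve lesion was compared with the non-injured side in dorsal root ganglia (DRGs) of mice that lack the transcription factor NFIL3. The comparison used 8 of the 24 samples of the study, 4 from *Nfil3* KO mice at day 5 (KO day 5) and 4 from the non-injured side of *Nfil3* KO mice (KO control), taken by their titles, and all 41174 non-control probes, which carry 27398 gene names. All 8 samples came from adult male mice with the strain label C57BL/6J and were total RNA of L4 and L5 DRGs. The injury was a lesion of the sciatic nerve after which the nerve ends were coaptated. It cut the peripheral axons that run in this nerve, while the centrally projecting branches were not cut. What share of the neurons of a ganglion was injured is not given in the sources used here. The KO mice were *Nfil3*-/-, made from a floxed allele that had been deleted in the germline by Cre under the human CMV promoter, so by design controls and injured samples alike carry the deletion, in all cell types and not only in neurons. The other 16 samples were KO mice at day 2 and wildtype littermates (WT, *Nfil3*+/+) as control, at day 2 and at day 5, with 4 samples per group. RNA was hybridized to 2-color Agilent arrays with a different sample in each dye, and each channel was read as 1 sample. A level is given here as log2 intensity after background correction and quantile normalization, and a change is the difference of the 2 group means on that scale, so that a change of 1 is a 2-fold difference. Levels of different genes cannot be set against each other, because each probe binds its target differently.

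DRG neurons are sensory neurons with an axon branch to the periphery and another to the spinal cord. When the peripheral branch is cut, they switch on transcription factors such as ATF3, JUN and SOX11 and a set of growth-associated and neuropeptide genes, and they reduce ion channels and transmission genes that mark the uninjured state. NFIL3 is a bZIP repressor that is itself induced in injured DRG neurons and has been studied as a brake on regeneration-associated genes, with *Arg1* and *Gap43* among its proposed targets. Macrophages gather in the ganglion after such an injury, and satellite glia, which wrap the neuron cell bodies, react to it.

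Promoter sequence was available for part of the genes with the most extreme changes, and the stretches that carry a motif are shown because they belong to genes described below. The motifs searched on both strands were TGANTCA (AP-1, the site of JUN and FOS family dimers), TGACGTCA (CRE, the site of CREB and ATF family factors) and TTANGTAA (the site of NFIL3). The window was the 250 bases before the RefSeq start in GRCm38.p6, and capitals mark the motif. All 5 genes lie on the minus strand, and each sequence runs 5′ to 3′ in the direction of the gene. The *Sprr1a* stretch (chr3:92485971-92486047) has AP-1 motifs that begin 146 and 116 bases before the start. The *Anxa10* stretch (chr8:62123194-62123393) has AP-1 motifs at 180 and 16 bases before the start. In *Nts* (chr10:102490599-102490645) an AP-1 motif begins at 207 bases, in *Ucn* (chr5:31138912-31138959) a CRE motif at 44 bases, and in *Htr3b* (chr9:48965163-48965210) an NFIL3 motif at 200 bases.
Sprr1a promoter: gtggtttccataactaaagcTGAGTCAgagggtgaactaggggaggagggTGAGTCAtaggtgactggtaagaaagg
Anxa10 promoter: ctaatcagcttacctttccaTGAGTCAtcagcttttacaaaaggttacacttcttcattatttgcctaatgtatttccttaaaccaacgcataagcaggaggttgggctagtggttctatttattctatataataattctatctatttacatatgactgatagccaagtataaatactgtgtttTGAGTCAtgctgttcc
Nts promoter: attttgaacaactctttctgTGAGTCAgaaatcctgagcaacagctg
Ucn promoter: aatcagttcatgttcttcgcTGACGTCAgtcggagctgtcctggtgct
Htr3b promoter: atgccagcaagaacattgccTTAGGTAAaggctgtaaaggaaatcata
Of the 20 genes named below for the size of their change, 16 matched a window, and the other 11 of these windows, *Atf3*, *Npy* and *Gal* among them, held none of the 3 motifs, which says only that these letters are not in this window. Over all genes tested, 5.9% of 19341 windows held an AP-1 motif. The share was 8.08% of 1522 windows of genes called higher at KO day 5 and 4.45% of 1707 windows of genes called lower. For the CRE motif the shares were 2.07%, 2.04% and 2.28% in the same order, and for the NFIL3 motif 1.75%, 1.25% and 1.11%. These shares are descriptions of the windows and were not tested.

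The probe that measured *Nfil3* best lies on chromosome 13 from 53062585 to 53062644 in mm9. Its log2 intensity was 2.99, 3.82, 4.39 and 7.66 in KO control replicates 1 to 4 and 5.86, 3.42, 5.71 and 2.89 in KO day 5 replicates 1 to 4. In WT mice the same probe gave 8.52, 8.71, 8.58 and 9.11 in the 4 control samples and 10.71, 11.04, 11.05 and 11.16 at day 5. All 8 KO samples lay below all 8 of these WT samples, but the sample labelled KO control replicate 4 came within 1 log2 unit of the lowest WT control, while the other KO controls were more than 4 units below it. Its signal counted as well above background, the scanner software's call, in 1 of 4 KO controls and in 2 of 4 KO day 5 samples. The change from KO control to KO day 5 was -0.25 (limma adjusted p = 0.911), and the second *Nfil3* probe gave -0.21 (limma adjusted p = 0.887). Without the sample labelled KO control replicate 4 the change of the brighter probe was 0.74, so the sign of this difference rested on that sample. Whether either probe lies inside the deleted stretch is not given in the sources used here.

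The KO samples were not all alike beyond *Nfil3*. For the sample labelled KO control replicate 4 the title says control while another label field says day 5, and of the KO controls it was the highest for *Sprr1a* (11.51), *Npy* (9.34) and *Gal* (12.41), genes that respond to nerve injury. It shared its array with KO day 5 replicate 2, which sat in the other dye. WT control replicate 4 shared its array with WT day 5 replicate 2 and had these genes at 11.78, 9.45 and 12.73. WT control replicate 2, arrayed with WT day 2 replicate 4, had 9.35, 7.92 and 11.70. WT control replicates 1 and 3, each arrayed with a KO control, had *Sprr1a* at 5.88 and 6.17 and *Npy* at 4.36 and 4.15. The part of array sharing was not tested. Over the whole profile the sample labelled KO control replicate 4 stood with the controls. The mean log2 shift of the 1396 genes called higher in WT at day 5 was 0.06 in this sample, between -0.04 and 0.02 in the other KO controls and 0.75 to 0.92 in KO day 5 samples. A mean over so many genes would move little if a small part of the RNA came from injured tissue, and this was not tested. The sample was kept as control by its title. The total count and the counts of part of the gene lists are given with and without it, as are single changes that moved by over 1.5-fold or turned sign. For the other lists the counts without it are not reported here. KO day 5 replicate 1 carried transcripts of skeletal muscle, with *Myh4*, the myosin of fast fibres, at 12.88 against 4.59 to 6.41 in the other 7 samples, and 17 genes were over 3 log2 units above the next KO day 5 sample, most of them muscle genes that were chosen after their values were seen. Samples outside these 8 also carried muscle transcripts. The median shift of skeletal muscle markers from the KO control mean was 5.09 in KO day 5 replicate 1. It was 4.33 in KO day 2 replicate 4 and 1.69 in KO day 2 replicate 1. The mean log2 intensity of these markers reached 8.64 in a WT control, against 9.21 in KO day 5 replicate 1. Between 61.2% and 72.4% of probes were well above background in KO controls and 64.8% to 70.1% in KO day 5 samples, and no spot was saturated.

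By day 5 the KO ganglia had changed in 3906 genes, counting a gene once if any of its probes had a limma adjusted p under 0.05. This is 14.3% of the 27398 gene names. There were 1834 genes with a higher and 2080 with a lower probe. With the brightest probe standing for each gene, 1676 genes were higher (6.12%) and 1813 were lower (6.62%), and among the 18280 genes measured well above background in at least 4 of the 8 samples the shares were 8.85% and 9.66%. In 3320 of these 3489 genes (95.2%) no value of one group overlapped the other. Over all 27398 genes the groups did not overlap in 5529. The calls and the overlap rest on the same 8 values, so the overlap is not separate support for the calls. Rises were larger than falls. A change of at least 2-fold was seen in 521 higher and 208 lower genes, and of at least 8-fold in 43 higher genes and in none of the lower ones. Genes that were well above background in no sample of a group, *Anxa10* and *Grp* among them, are not in these counts. The ganglia are mixed tissue, so a lower value cannot be told apart as fewer cells of a type or less RNA per cell. Without the sample labelled KO control replicate 4 the count was 3345 genes, 3173 of them among the 3906. Without KO day 5 replicate 1 it was 3625, of which 3359 were shared. The arrays were on 3 slides, and with slide as a block 4937 genes passed, while within slide 1 (2 samples per group) 226 passed and within slide 2 (2 KO day 5 samples against 1 KO control) 43 passed, all of them higher on slide 2.

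**Figure D1:**
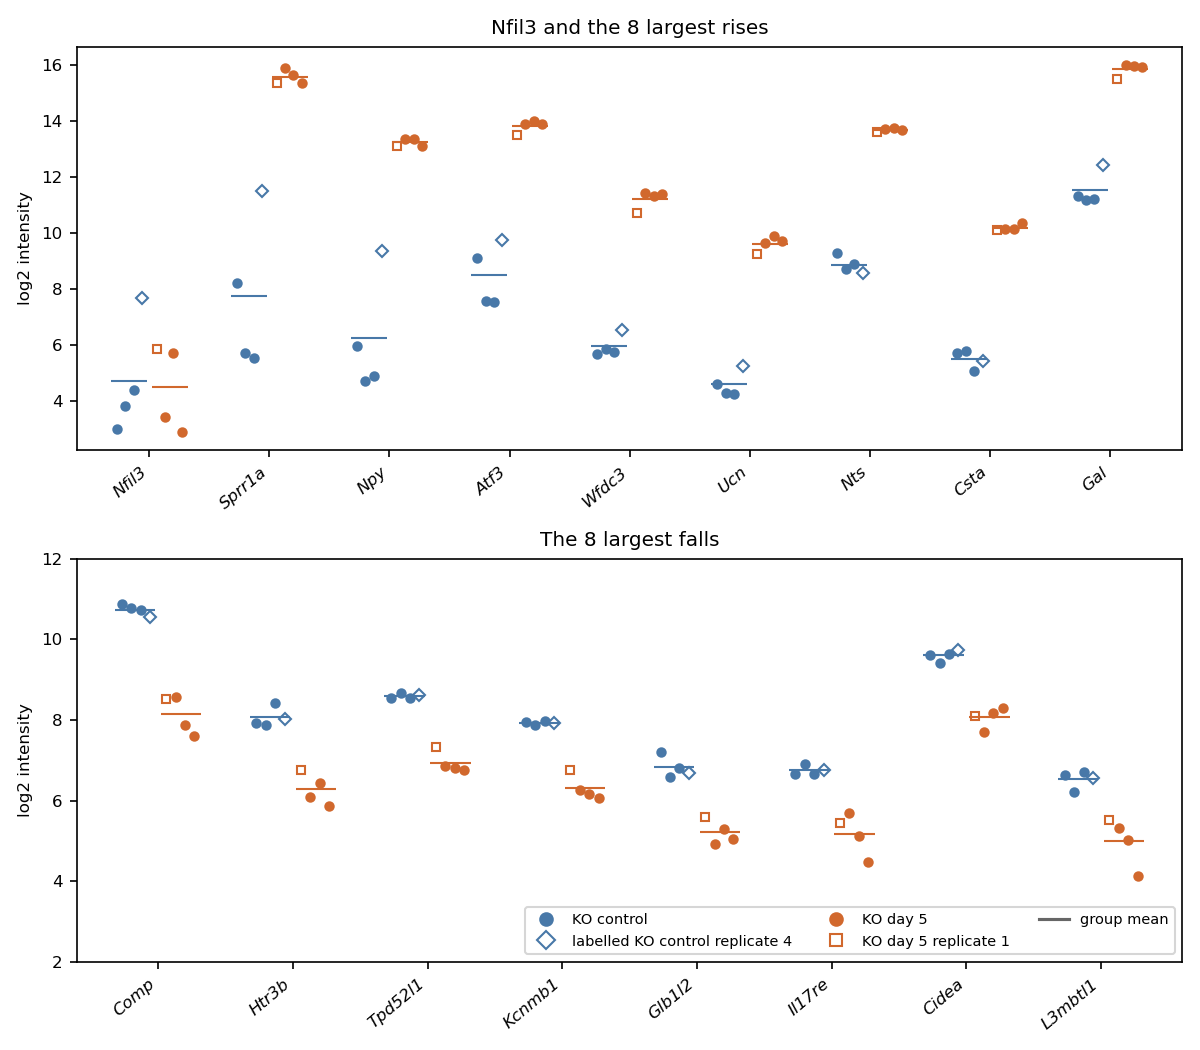
Log2 intensity (y axis) of *Nfil3*, the 8 largest rises and the 8 largest falls in each KO control (blue) and KO day 5 (orange) sample, with lines at group means. Open diamonds mark the sample labelled KO control replicate 4, which lies at 11.51 for *Sprr1a* and 7.66 for *Nfil3*, and open squares mark KO day 5 replicate 1. The 16 ranked genes were chosen among genes whose groups do not overlap, and in *Nfil3* they overlap.

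The largest rises were in genes of the injury response of neurons. *Sprr1a*, a small proline-rich protein that promotes neurite growth, had log2 intensities of 8.22, 5.71, 5.53 and 11.51 in KO controls and 15.35, 15.91, 15.65 and 15.37 at KO day 5. All day 5 values were higher than any control, but the controls spanned from 5.53 to 11.51. The change was 7.83, or 228-fold (limma adjusted p = 5.41e-05), and it was 9.09 without the sample labelled KO control replicate 4, 7.15 without replicate 2 and 7.09 without replicate 3. *Npy*, the vasoconstrictor and modulatory neuropeptide Y, went from 5.96, 4.70, 4.89 and 9.34 to 13.10, 13.36, 13.35 and 13.12. Again the KO control labelled replicate 4 was the highest control and the day 5 samples lay close together. The rise was 7.01 (129-fold, limma adjusted p = 3.68e-05), and 8.05 without that sample. *Atf3*, the bZIP factor most used as a marker of axon injury, was 9.11, 7.57, 7.53 and 9.73 in controls and 13.48, 13.90, 13.99 and 13.90 at day 5. Its controls fell into a higher pair, replicates 1 and 4, and a lower pair, and the rise was 5.33 (40.3-fold, limma adjusted p = 2.28e-07). Replicates 1 and 4 are the KO controls that shared an array with an injured sample. With replicates 2 and 3 alone, an alternative chosen after seeing the data, the rise was 6.27, and the part of array sharing in this difference was not tested.

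Secreted peptides followed. *Gal*, galanin, which modulates pain and supports neuron survival, was 11.31, 11.18, 11.20 and 12.41 in controls and 15.51, 15.99, 15.98 and 15.94 at day 5. The 4 day 5 samples were all above the controls, with replicate 1 the lowest of them, and the rise was 4.33 (20.1-fold, limma adjusted p = 3.75e-09). *Nts*, neurotensin, was 9.26, 8.70, 8.87 and 8.58 against 13.59, 13.71, 13.74 and 13.67. It had a tight day 5 group and rose 28.4-fold (4.83, limma adjusted p = 7.81e-13). *Ucn*, urocortin, a ligand of corticotropin-releasing hormone receptors, was 4.60, 4.27, 4.24 and 5.24 against 9.23, 9.62, 9.90 and 9.69. The groups were again apart, and the rise was 32.5-fold (5.02, limma adjusted p = 2.61e-09). The protease inhibitor genes *Wfdc3* and *Csta* (a cystatin) rose by 5.26 and 4.68 (limma adjusted p = 5.37e-12 and 1.91e-13, the latter on 1 of 2 *Csta* probes), with *Wfdc3* at 10.71 in KO day 5 replicate 1 and between 11.30 and 11.41 in the other day 5 samples.

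There were 4 ranked genes that went from no control sample well above background to all 4 day 5 samples above it. Their change is given as an estimate, called the bound here, under the background correction used. For the bound, a control took its own probe value or, if larger, the dimmest value that counted as well above background on that array. The day 5 mean was set against the mean of these. That dimmest value is not a detection limit, so the bound is not a guaranteed minimum. *Anxa10*, an annexin, a family of calcium-dependent membrane-binding proteins, was 3.17, 3.40, 2.87 and 2.54 in controls and 9.72, 9.56, 9.76 and 9.94 at KO day 5. By the bound it was 90.0-fold higher (limma adjusted p = 4.98e-14). *Grp*, gastrin-releasing peptide, was 3.43, 2.44, 2.57 and 3.75 against 8.06, 7.98, 7.75 and 8.11, 27.2-fold higher by the bound (limma adjusted p = 1.38e-08). *Taf7l*, a relative of the TFIID subunit TAF7, and *Fgf3*, a fibroblast growth factor, were 20.7-fold and 18.6-fold higher by the bound. In none of these 4 genes did a control reach the day 5 values. The sizes depended on the background correction, since with normexp the log2 changes were 3.33 for *Anxa10*, 1.83 for *Grp*, 1.43 for *Taf7l* and 1.42 for *Fgf3*. The second *Taf7l* probe gave 2.23 (limma adjusted p = 0.000135). No gene met the same rule in the other direction.

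The largest falls were smaller. *Comp*, the matrix protein known from cartilage, was 10.87, 10.79, 10.73 and 10.55 in KO controls and 8.51, 8.57, 7.87 and 7.61 at day 5. The lowest control and the highest day 5 sample were well apart, and the fall was 6.03-fold (-2.59, limma adjusted p = 3.27e-07). *Htr3b*, a subunit of the 5-HT3 serotonin receptor channel, was 7.92, 7.88, 8.42 and 8.03 against 6.76, 6.09, 6.44 and 5.86. Every day 5 sample was below every control, and the change was -1.78 (3.43-fold, limma adjusted p = 0.00115). *Kcnmb1*, a beta subunit of the BK potassium channel, was 7.96, 7.88, 7.98 and 7.92 against 6.76, 6.25, 6.15 and 6.07, with KO day 5 replicate 1 nearest to the controls. Its change was -1.63 (limma adjusted p = 2.87e-07), but the second of its 2 probes did not pass. The remaining large falls were *Tpd52l1* (-1.65), *Glb1l2* (-1.60), *Il17re*, an interleukin-17 receptor (-1.57, with 1 of 2 probes passing), *Cidea*, a lipid droplet protein (-1.53), and *L3mbtl1*, a chromatin reader (-1.53), all with limma adjusted p between 1.01e-07 and 0.00514.

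**Figure D2:**
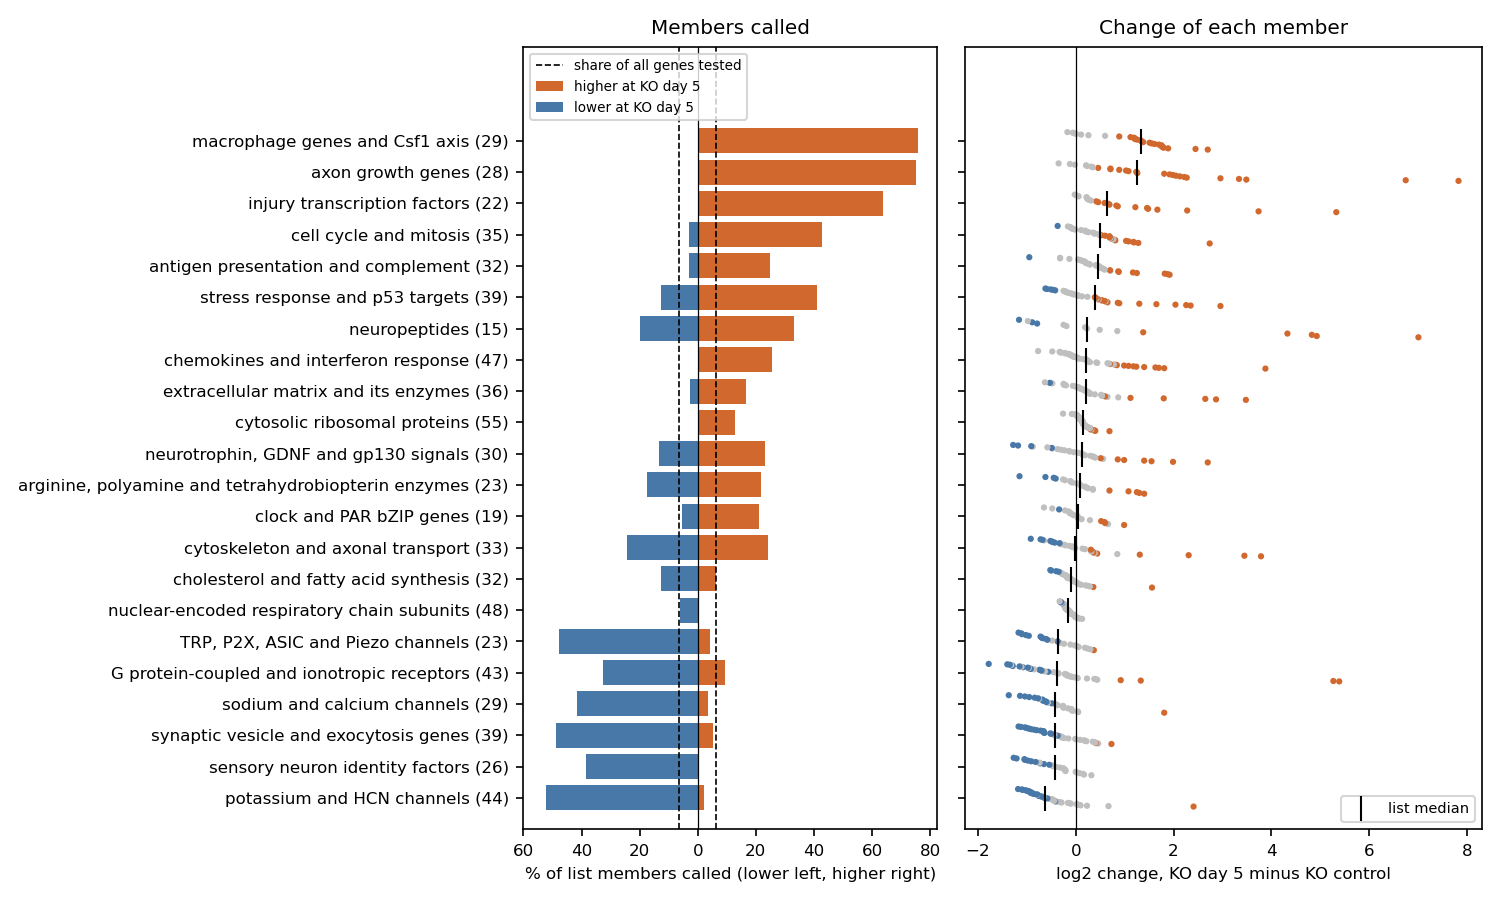
Left, the share of each gene list (members on the array in brackets) called higher (orange) or lower (blue) at KO day 5, with the shares over all genes, 6.12% and 6.62%, as dashed lines. Right, the log2 change of each member, colored if called and grey if not, with the list median as a bar. Macrophage, axon growth and injury factor lists have the largest shares higher and potassium channels the largest share lower.

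Gene lists put these changes into groups, each described by its counts beside the 6.12% higher and 6.62% lower over all genes and the median change of -0.0277 over all genes. Of 22 transcription factors of the injury response, 14 were higher (63.6%) and 0 lower, with a median change of 0.631. *Sox11*, a SOX factor of developing neurons, was 6.87, 6.31, 6.63 and 6.74 in controls and 10.15, 10.62, 10.24 and 10.49 at day 5, a 13.3-fold rise (3.74, limma adjusted p = 4.76e-12). All 6 *Sox11* probes passed, with changes from 1.22 to 3.74. *Jun*, the AP-1 subunit needed for efficient regeneration, was 10.46, 10.19, 10.09 and 10.20 against 11.63, 11.95, 12.05 and 11.99, a rise of 1.67 (limma adjusted p = 9.13e-09). Both groups were apart in these genes, with the day 5 samples of *Jun* all at or above 11.63. *Smad1*, which carries BMP signals to the nucleus, rose by 1.22 (limma adjusted p = 8.99e-08). *Fosl1* was not well above background in any control and was 4.29-fold higher by the bound used above. The other members that rose, by 0.42 to 1.48, were *Klf6*, *Fosl2*, *Ddit3*, *Cebpd*, *Fos*, *Atf4*, *Cebpb*, *Junb* and *Creb1*. The 8 remaining members did not pass, among them *Egr1* (-0.02), *Klf4* (0.02), *Sox4* (0.06) and *Stat3* (0.23). The count was 12 without the sample labelled KO control replicate 4.

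Of 28 genes tied to axon growth, 21 rose (75%) and none fell, with a median change of 1.25. The list includes *Sprr1a* and *Anxa10*. *Flrt3*, a leucine-rich repeat adhesion protein, was 8.55, 8.25, 8.46 and 8.58 in controls and 11.75, 11.96, 11.97 and 12.10 at day 5 (3.49, 11.2-fold, limma adjusted p = 3.59e-12). *Stmn4*, a stathmin that regulates microtubules, was 11.75, 11.75, 11.85 and 12.35 against 15.08, 15.39, 15.35 and 15.23 (3.34, 10.1-fold, limma adjusted p = 5.6e-12). In both, each group held together and the sample labelled KO control replicate 4 was the highest control. *Gap43*, the growth cone phosphoprotein and one of the proposed NFIL3 targets, had a mean of 9.60 ± 0.23 (SD, n = 4) in controls and 11.64 ± 0.05 at day 5, a rise of 2.05 (limma adjusted p = 1.15e-07). *Arg1*, arginase 1, the other, was 4.14 ± 0.48 and 5.39 ± 0.18 (1.25, limma adjusted p = 0.00313), and 2 of 4 controls had a signal well above background. *Plaur* (2.27), *Ankrd1* (2.22), *Ecel1* (2.13), *Chl1* (1.99) and *Itga7* (1.92) also rose. Of the members that did not pass, *L1cam* had a difference of -0.12, *Dpysl3* of -0.02 and *Ncam1* of 0.32. The count was 21 without the sample labelled KO control replicate 4 and 22 without KO day 5 replicate 1.

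Neuropeptides went both ways. Of 15 on the array, 5 rose and 3 fell. Beside *Npy*, *Nts*, *Gal* and *Grp*, the rise of *Adcyap1*, which encodes PACAP, was 1.38 (limma adjusted p = 4.17e-08). The 3 that fell were *Tac1*, *Calca* and *Calcb*. *Tac1*, the substance P precursor, was 12.36, 12.19, 12.08 and 12.16 in controls and 11.60, 11.02, 10.76 and 10.78 at day 5 (-1.16, limma adjusted p = 0.000767), on 1 of its 3 probes, the others being well above background in at most 2 samples of a group. *Calca*, which encodes CGRP, was 16.82, 16.84, 17.17 and 17.10 against 16.53, 15.90, 16.29 and 16.06 (-0.79, limma adjusted p = 0.000523), while its second probe, well above background in all 8 samples, gave -0.52 and did not pass (limma adjusted p = 0.0735). *Calcb* fell by 0.89. In all 3 genes KO day 5 replicate 1 was the highest day 5 sample, though still below the controls. *Vip*, known as an injury-induced peptide, stayed at background in all 8 samples, and its difference of 0.85 did not pass (limma adjusted p = 0.156).

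Of 44 potassium and HCN channel genes, 23 fell (52.3%) and 1 rose, with a median change of -0.637, and the median was -0.558 within slide 1 and -0.722 within slide 2. *Kcns3*, a modifier subunit of voltage-gated potassium channels, was 11.62, 11.71, 11.35 and 11.45 in controls and 10.67, 10.26, 10.28 and 10.20 at day 5 (-1.18, limma adjusted p = 0.000107). *Kcnab2*, a beta subunit of Kv1 channels, was 13.46, 13.78, 13.66 and 13.53 against 12.92, 12.61, 12.76 and 12.68 (-0.87, limma adjusted p = 5.45e-06). KO day 5 replicate 1 was the day 5 sample nearest to the controls in both, and the groups were apart. *Kcna4*, *Kcnip1*, *Kcnb2* and *Kcnv1* fell by 1.10, 1.09, 1.03 and 1.00. The exception was the tandem-pore channel gene *Kcnk16*, which was 5.27-fold higher by the bound used above. Its log2 change of 2.41 was 0.48 with normexp, so its size depended on the background correction. Of the members that did not pass, *Kcnq3*, a subunit of the M current, had a difference of 0.67. The number lower depended on the samples. It was 18 without the sample labelled KO control replicate 4, 14 without KO control replicate 1 or without KO day 5 replicate 2 or 3, 15 without KO day 5 replicate 4 and 9 with KO controls 2 and 3 alone.

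Of 29 sodium and calcium channel genes, 12 fell (41.4%) and 1 rose, with a median change of -0.423. The nociceptor sodium channels *Scn11a* (Nav1.9) and *Scn10a* (Nav1.8) were at 11.90 ± 0.11 and 11.40 ± 0.21 (SD, n = 4) in controls and at 10.53 ± 0.18 and 10.26 ± 0.17 at day 5, which are falls of 1.37 and 1.14 (limma adjusted p = 0.00148 and 0.00114). *Scn2b*, a sodium channel beta subunit, was 10.32, 10.72, 10.65 and 10.80 against 9.69, 9.69, 9.62 and 9.70 (-0.95, limma adjusted p = 0.00037). Its day 5 values were nearly equal and all below the controls. The gene that rose was *Cacna2d1*, the calcium channel subunit that binds gabapentin. It was 11.44, 11.14, 11.13 and 11.31 in controls and 12.97, 13.19, 13.05 and 13.08 at day 5, a 3.52-fold rise (1.81, limma adjusted p = 3.95e-09), while its relative *Cacna2d3* fell by 0.66 (limma adjusted p = 0.000601). In neither gene did the groups overlap. The number lower was 10 without the sample labelled KO control replicate 4, 9 without KO day 5 replicate 1 and 8 without KO control replicate 1 or KO day 5 replicate 2.

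Among 23 TRP, P2X, ASIC and Piezo channel genes, which sense heat, cold, ATP, acid and touch, 11 fell (47.8%) and 1 rose, with a median change of -0.371. *Trpa1*, the irritant receptor, was 8.17, 7.82, 8.02 and 7.72 in controls and 7.18, 6.53, 6.78 and 6.57 at day 5 (-1.17, limma adjusted p = 0.000656). The cold receptor gene *Trpm8* fell by 1.11 (limma adjusted p = 0.00237), and *Fam38b*, which encodes the touch channel Piezo2, by 0.61. *P2rx3*, the ATP receptor of nociceptors, had 8.96 ± 0.50 in controls and 9.01 ± 0.20 at day 5 (0.06, limma adjusted p = 0.94), a difference within the spread of its controls. The 1 gene that rose, *Trpv4* (0.37, limma adjusted p = 0.0422), passed with all samples and without KO control replicate 3 or KO day 5 replicate 1, and in none of the other 6 fits that left out a sample. The number lower was 9 without the sample labelled KO control replicate 4 and 7 without KO day 5 replicate 4.

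Of 43 G protein-coupled and ionotropic receptor genes, 14 fell (32.6%) and 4 rose. The rises included some of the largest of the data. *Cckbr*, the cholecystokinin B receptor, was 5.17, 4.15, 4.88 and 6.60 in controls and 10.03, 10.68, 11.03 and 10.62 at day 5 (5.39, limma adjusted p = 1.99e-08). Its second probe gave 1.71 (limma adjusted p = 8.63e-07), each probe was well above background in 2 of 4 controls, and with probes averaged or with other background corrections the change was 3.55 to 6.26. *Gpr151*, an orphan receptor, was 4.26, 3.64, 3.63 and 4.08 against 9.04, 9.04, 9.42 and 9.21 (5.27, limma adjusted p = 3.24e-12). It was well above background in 1 of 4 controls, and its change was 2.71 with normexp background correction and 6.68 with the processed signals. Both genes were far above every control at day 5, and they were not ranked among the 8 largest rises because not all controls were well above background. The GABA-A subunit genes *Gabrg1* and *Gabra5* rose by 1.33 and 0.92, with *Gabrg1* on 1 of its 2 probes. Beside *Htr3b*, the somatostatin receptor gene *Sstr2* fell by 1.40 (limma adjusted p = 0.000264), the nicotinic subunits *Chrnb3* and *Chrna6* by 1.35 and 1.29, with *Chrnb3* well above background in 1 of 4 day 5 samples, and the mu opioid receptor gene *Oprm1* by 0.92. *Oprl1*, the nociceptin receptor, fell by 1.15 on 1 of its 2 probes, while the other, also well above background, gave -0.10. The number lower was 10 without the sample labelled KO control replicate 4, 9 without KO control replicate 1, 8 without KO day 5 replicate 3 and 9 without KO day 5 replicate 4.

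Of 39 synaptic vesicle and exocytosis genes, 19 were lower (48.7%) and 2 were higher, with a median change of -0.425. *Cplx2*, a complexin that clamps vesicle fusion, was 13.02, 13.49, 13.52 and 13.38 in controls and 12.46, 12.17, 12.31 and 11.98 at day 5 (-1.12, limma adjusted p = 0.000108), on 2 of 4 probes. *Syt3*, a synaptotagmin, was 8.09, 8.79, 8.23 and 8.56 against 7.48, 7.50, 7.22 and 7.32 (-1.04, limma adjusted p = 0.000111). The groups were apart in both genes. *Rph3a* (-1.17), *Syt7* (-1.01) and *Snap25* (-0.80) also fell, whereas *Syt4* (0.73) and *Rab3c* (0.41) rose. Of 26 factors that set sensory neuron identity, 10 fell (38.5%) and none rose, with a median change of -0.434. *Isl2*, a LIM homeodomain factor, went from 13.63 ± 0.08 (SD, n = 4) to 12.41 ± 0.10 (-1.21, limma adjusted p = 0.00149), and *Hoxd1* from 8.48 ± 0.17 to 7.21 ± 0.14 (-1.27, limma adjusted p = 0.00597). *Pou4f1*, which encodes BRN3A, did not pass at -0.47. Without the sample labelled KO control replicate 4 the numbers lower were 18 and 10. Within a slide, where 2 samples or fewer stand for a group, none of the members of the channel, receptor, synaptic and identity lists passed as lower except 1 sodium or calcium channel gene on slide 1, while the medians of the 6 lists were between -0.558 and -0.384 on slide 1 and between -0.722 and -0.306 on slide 2.

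Signals to and from injured neurons changed in part. In a list of 30 genes of neurotrophins, GDNF family members and gp130 cytokines with their receptors, 7 rose and 4 fell. The ligand *Il6* was 4.90, 4.13, 4.47 and 4.37 in controls and 6.55, 6.49, 6.36 and 6.43 at day 5, with no overlap (1.99, limma adjusted p = 1.25e-06). The GDNF receptor gene *Gfra1* rose 2.93-fold (1.55, limma adjusted p = 3.58e-08), and the artemin receptor gene *Gfra3* rose by 0.99, while the neurturin receptor gene *Gfra2* fell by 1.18 (limma adjusted p = 0.00405) and the ligand *Ntf3* by 1.28 (limma adjusted p = 0.00375). *Ntf3* was well above background in 1 of 4 day 5 samples, and with normexp its change was -0.26. *Bdnf* (0.30), *Ntrk2* (-0.23) and *Ret* (0.12) did not pass. *Csf1*, which this list shares with the macrophage list, is a macrophage growth factor that injured sensory neurons are known to make. It was 8.65, 8.63, 8.56 and 8.91 in controls and 11.15, 11.52, 11.48 and 11.38 at day 5, which is 6.48-fold higher (2.70, limma adjusted p = 7.45e-10), with all day 5 samples above all controls.

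Of the gene lists, that of macrophages had the largest share of members called higher. Of 29 genes of macrophages and the Csf1 axis, 22 rose (75.9%) and none fell, with a median change of 1.34, which was 1.45 within slide 1 and 1.17 within slide 2. *Trem2*, a lipid-sensing receptor of macrophages and microglia, was 7.73, 7.37, 7.64 and 8.05 in controls and 9.90, 10.28, 10.32 and 10.09 at day 5 (2.45, 5.46-fold, limma adjusted p = 3.88e-09). *Cx3cr1*, the fractalkine receptor, was 6.34, 5.52, 5.98 and 6.26 against 7.78, 7.93, 8.12 and 7.32 (1.76, limma adjusted p = 6.6e-06). In both genes the day 5 samples were above all controls. *Csf1r*, the receptor for Csf1, rose by 1.70 (limma adjusted p = 1.35e-05), and *Ctss*, a lysosomal protease, by 1.89. The members that did not pass included *Spp1* (0.60), *Ctsd* (0.26), *Sfpi1* (0.11), *Gpnmb* (0.01), *Apoe* (-0.02) and *Lyve1* (-0.06). *Apoe* is also on the list of satellite glia markers. The count was 22 without the sample labelled KO control replicate 4 and also without KO day 5 replicate 1.

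In the list of antigen presentation and complement, 8 of 32 genes rose (25%) and 1 fell. The 3 chains of C1q, made mainly by macrophages, were among them. *C1qa* was 8.34, 7.97, 8.01 and 8.73 in controls and 9.98, 10.51, 10.22 and 9.85 at day 5 (1.88, limma adjusted p = 2.25e-05), and *C1qc* and *C1qb* rose by 1.92 and 1.82. *C3*, *C4b* and the C3a receptor gene *C3ar1* rose by 1.25, 0.87 and 0.88, while *Cd55*, which limits complement on cell surfaces, fell by 0.95 (limma adjusted p = 0.00162). None of the class II genes passed, with *H2-Aa* at 0.59 and *Cd74* at 0.58. Of 47 chemokine and interferon genes, 12 rose (25.5%) and none fell. *Ccl8* was 7.39, 7.61, 7.76 and 8.45 in controls and 11.79, 11.87, 11.94 and 11.13 at day 5, well apart (3.88, 14.7-fold, limma adjusted p = 5.26e-08), and the monocyte-attracting *Ccl7* and *Ccl12* rose by 1.81 and 1.63. Interferon targets differed among themselves, with *Oas2* (0.82) and the factor *Irf8* (0.99) passing and *Isg15* (0.03) and *Ifit1* (-0.77) not passing. The count of this list was 12 without the sample labelled KO control replicate 4 and 13 without KO day 5 replicate 1.

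**Figure D3:**
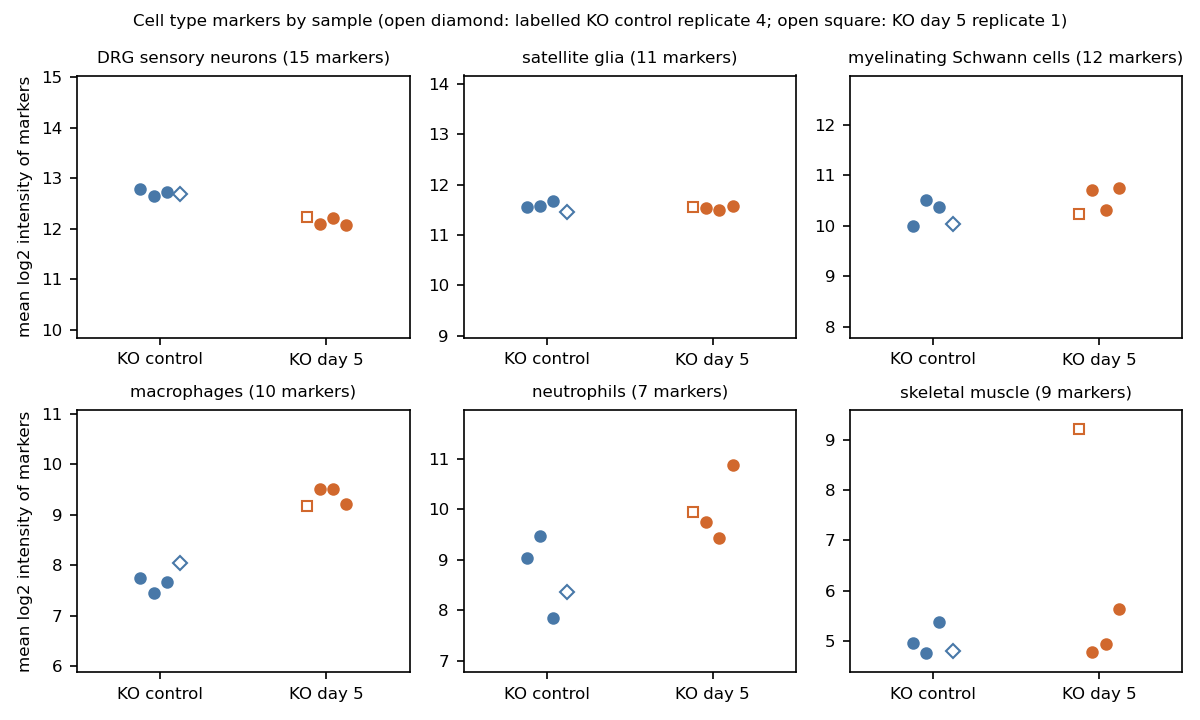
Mean log2 intensity of the markers of 6 cell types (y axis, a range of its own in each panel) in each KO control (blue) and KO day 5 (orange) sample. Macrophage markers lie at 7.44 to 8.04 in controls and 9.17 to 9.51 at day 5, neuron markers at 12.65 to 12.79 and 12.08 to 12.24, and the muscle markers stand out in KO day 5 replicate 1 (open square) at 9.21.

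The tissue label reads DRG neurons, but the samples held the other cells of the ganglion too. All 15 neuron markers, all 11 satellite glia markers, all 12 myelinating Schwann cell markers and all 10 macrophage markers were well above background in all 8 samples. All 10 macrophage markers rose, and their mean log2 intensity was 7.74, 7.44, 7.67 and 8.04 in KO controls and 9.17, 9.51, 9.50 and 9.21 at day 5. The mean of the neuron markers was 12.65 to 12.79 in controls and 12.08 to 12.24 at day 5, with 8 markers lower and 1, the neuronal tubulin gene *Tubb3*, higher (0.44, limma adjusted p = 0.000259). Satellite glia markers had a mean of 11.45 to 11.67 in controls and 11.50 to 11.58 at day 5, and only *Glul*, glutamine synthetase, passed (0.67, limma adjusted p = 0.000118). None of the markers of myelinating Schwann cells, endothelial cells or fibroblasts passed. The neutrophil markers had a median change of 1.33, but none of the 7 passed and their mean overlapped between the groups, from 7.85 to 9.48 in controls and from 9.43 to 10.89 at day 5. Of 6 adipocyte markers 1 passed, *Adipoq* (1.60, limma adjusted p = 0.0324), with a mean of 4.90 to 5.84 in controls and 5.54 to 7.03 at day 5. The 9 skeletal muscle markers had a mean of 9.21 in KO day 5 replicate 1, 4.79 to 5.65 in the other day 5 samples and 4.76 to 5.39 in controls, and none passed. Of the remaining marker lists, none of 6 B cell and 6 erythrocyte markers passed, 1 of 12 T and NK cell markers rose (*Gzmb*, 0.96), and 1 marker rose and 1 fell among 8 of pericytes and smooth muscle (*Myh11*, 1.12 and *Rgs5*, -0.72), 6 of central nervous system glia (*Aldh1l1*, 1.25 and *Aqp4*, -0.80) and 10 of non-myelinating and repair Schwann cells (*Gap43*, 2.05 and *Cadm1*, -0.55). What part the neutrophil, adipocyte and muscle transcripts have in the other changes was not tested, beyond the counts without KO day 5 replicate 1.

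Growth and stress genes were also called. Of 35 cell cycle genes, 15 rose (42.9%) and 1 fell. *Prc1*, a microtubule bundling protein of dividing cells, was 7.40, 7.28, 7.20 and 7.43 in controls and 9.90, 10.05, 10.14 and 10.19 at day 5 (2.74, 6.67-fold, limma adjusted p = 7.41e-11), while *Mki67* and *Top2a*, markers of cycling cells, rose by 1.18 and 1.08. The groups of *Prc1* were well apart. The number higher was 12 without the sample labelled KO control replicate 4. Of 39 stress and p53 genes, 16 rose (41%) and 5 fell. *Gadd45a*, which responds to DNA damage and other stress, was 9.56, 9.30, 9.30 and 9.46 in controls and 12.16, 12.51, 12.33 and 12.47 at day 5 (2.96, 7.78-fold, limma adjusted p = 4.11e-10). *Cdkn1a*, the cell cycle inhibitor p21, was 10.18, 10.40, 10.51 and 10.47 against 12.34, 12.79, 12.83 and 12.66 (2.26, limma adjusted p = 3.25e-08). In both genes all day 5 samples were above all controls. The glutathione synthesis genes *Gclc* and *Gclm* and the heat shock genes *Hspa1a* and *Hspa1b* fell by 0.62, 0.59, 0.42 and 0.46, and the number lower was 2 without KO control replicate 3 or KO day 5 replicate 4 and 3 without KO control replicate 1 or KO day 5 replicate 2.

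Among 33 cytoskeleton and transport genes, 8 rose and 8 fell. *Kif22*, a kinesin of the mitotic spindle, was 9.94, 9.68, 9.94 and 10.43 in controls and 13.53, 13.86, 13.90 and 13.86 at day 5, with no overlap (3.79, 13.8-fold, limma adjusted p = 4.63e-12). *Tubb6*, a beta tubulin, rose by 3.45 (limma adjusted p = 7.41e-11) on its brighter probe, while its other probe gave -0.52 (limma adjusted p = 0.0508), so its 2 probes disagreed. *Tuba1c* rose by 2.31 on 1 of its 2 probes. The neurofilament genes *Nefh* and *Nefm* fell by 0.92 and 0.68 (limma adjusted p = 0.000127 and 0.00217). The number lower was 4 without KO control replicate 1 or KO day 5 replicate 2 and 5 without KO control replicate 3, KO day 5 replicate 3 or KO day 5 replicate 4. In the list of 36 matrix genes 6 rose and 1 fell. *Mmp16*, a membrane-bound matrix protease, was 6.51, 6.27, 6.55 and 6.46 in controls and 9.74, 9.92, 10.05 and 10.01 at day 5 (3.48, 11.2-fold, limma adjusted p = 3.59e-12). Its second probe, well above background in 1 of 4 controls, gave 1.57. *Loxl2* rose 6.27-fold. All 4 day 5 samples exceeded all controls in both genes. Of the fibrillar collagens *Col1a1* (0.07), *Col1a2* (0.11) and *Col3a1* (0.17) none passed.

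Of 23 genes of arginine, polyamine and tetrahydrobiopterin metabolism, 5 rose and 4 fell. Beside *Arg1*, *Arg2* rose by 1.40 (limma adjusted p = 7.04e-06) and *Odc1*, the first enzyme of polyamine synthesis, was 12.78, 12.78, 12.88 and 12.91 in controls and 13.85, 14.21, 14.24 and 14.26 at day 5 (1.30, limma adjusted p = 1.65e-07). *Gch1*, the first enzyme of tetrahydrobiopterin synthesis, rose by 1.08, while *Ass1*, which makes the precursor of arginine, fell by 1.15 (limma adjusted p = 0.00167) and *Nos1* by 0.62 on 1 of its 2 probes. Of 32 genes of cholesterol and fatty acid synthesis 2 rose and 4 fell, close to the shares over all genes on the higher side (6.25%), with *Hsd17b7* 2.96-fold higher (1.56, limma adjusted p = 3.22e-08). Of 55 ribosomal protein genes 7 rose, led by *Rpl35* (0.69, limma adjusted p = 8.31e-06), and the number was 4 without KO control replicate 2 or KO day 5 replicate 3. Among 48 respiratory chain genes 3 fell (6.25%), a share below that of all genes, and 1 fell without KO control replicate 1, 3 or 4 or KO day 5 replicate 2 or 3. The clock and PAR bZIP list, which holds relatives of NFIL3, had 4 of 19 genes higher and 1 lower, with *Bhlhe41*, which encodes the clock repressor DEC2, at 0.99 (limma adjusted p = 0.00021) and *Tef*, a PAR bZIP factor, at -0.34 on 1 of its 4 probes. *Dbp* (0.12) and *Hlf* (-0.07), which like TEF bind sites related to those of NFIL3, did not pass. The clock list had 2 genes higher without KO control replicate 2, the sample labelled KO control replicate 4 or KO day 5 replicate 2, the arginine list had 2 lower without KO day 5 replicate 4, and the cholesterol list had 1 higher or 2 lower in several fits that left out a sample.

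**Figure D4:**
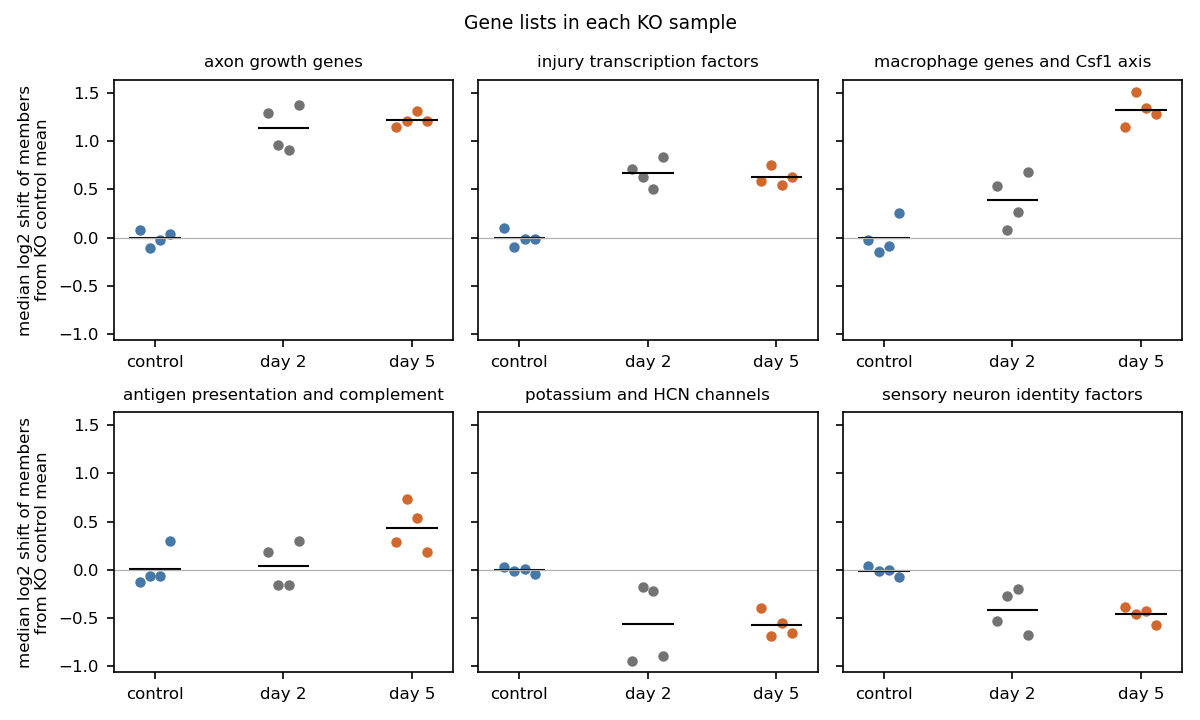
Median log2 shift of the members of 6 gene lists from the KO control mean (y axis) in each KO sample at control, day 2 and day 5, with lines at group means. Macrophage genes lie at 0.08 to 0.68 at day 2 and 1.15 to 1.51 at day 5, while injury transcription factors lie at 0.50 to 0.84 and 0.55 to 0.75.

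To see which day 5 levels were already present earlier, KO day 5 was compared with KO day 2. A gene counted by any probe differed in 313 cases (1.14% of 27398), 237 higher and 76 lower at day 5. By the brightest probe 273 genes differed and 184 of them also differed from control, of which 155 had risen further by day 5, 15 had fallen further, 13 had come back from above and 1 from below. Of the macrophage list 9 of 29 genes were higher at day 5 than at day 2. Of the antigen presentation and complement list it was 9 of 32, and of the injury transcription factors 0 of 22. Over all genes 210 of 27398 were higher by the brightest probe, so 0 of 22 lies near that share. The median shift of the macrophage genes was 0.08 to 0.68 in KO day 2 samples and 1.15 to 1.51 in KO day 5 samples, without overlap. *Trem2* was 1.62 higher at day 5 than at day 2 (limma adjusted p = 5.47e-05), *Cx3cr1* 1.59 higher (limma adjusted p = 0.000423) and *Anxa10* 2.29 higher (limma adjusted p = 2.29e-05). *Atf3* differed by 0.23 (limma adjusted p = 0.942) and *Jun* by 0.03, within the spread of their samples. *Il6* was lower at day 5 than at day 2 (-0.97, limma adjusted p = 0.0285) while above control. These counts depended on the estimate of spread. With the 8 samples of the 2 groups alone no gene passed (2886 at an unadjusted p under 0.05), none passed within slide 1 (3875) or slide 2 (2670), and leaving out KO day 5 replicate 2 or 3 gave 164 genes, against 189 without KO day 5 replicate 4 and 187 without KO day 2 replicate 2.

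**Figure D5:**
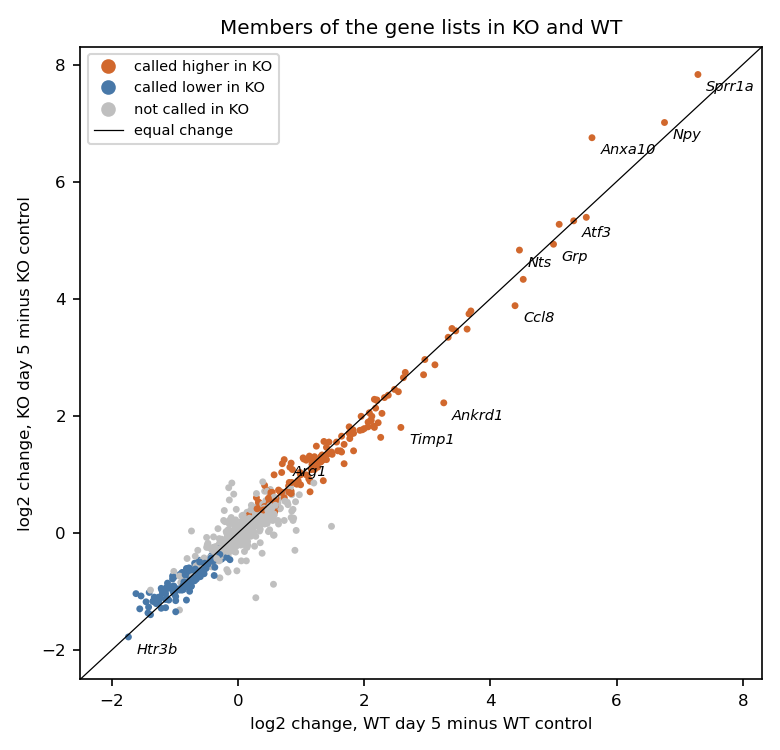
Log2 change at day 5 in WT (x axis) and KO (y axis) for each member of the gene lists, colored by the call in KO, with the line of equal change. *Anxa10* (5.61 and 6.75) lies above the line and *Ankrd1* (3.26 and 2.22) and *Timp1* (2.58 and 1.80) below it, and no difference passed the test.

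Whether the day 5 change differed between KO and WT mice was tested as an interaction, and 0 of 27398 genes passed (0%, limma, smallest adjusted p = 1), with 693 genes at an unadjusted p under 0.05. The WT comparison, which has control samples of its own, called 4217 genes (15.4%). Of the 3489 genes called in KO by the brightest probe, 3469 (99.4%) had the same sign in WT and 2877 (82.5%) were also called there. Over these genes the 95% interval of the difference between the KO and the WT change reached a median of 0.43 log2 units to each side, and it included 0 in 3428 of them. A failure to pass does not show equal changes, so intervals are given for the genes that matter most. For *Gap43* the KO change was 2.05 and the WT change 2.08, with a difference between -0.57 and 0.51. For *Arg1* they were 1.25 and 0.73, with a difference between -0.26 and 1.31. *Jun* gave a difference between -0.47 and 0.26, and *Atf3*, with its scattered controls, between -1.46 and 1.49. For *Sprr1a* and *Npy* the intervals ran from -2.73 to 3.81 and from -2.58 to 3.08, too wide to bound the difference usefully.

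The list members with the smallest unadjusted interaction p-values included *Anxa10*, which changed by 6.75 in KO and 5.61 in WT (limma unadjusted p = 0.0017, adjusted p = 1), and the protease inhibitor gene *Timp1*, which changed by 1.80 in KO and 2.58 in WT (limma unadjusted p = 0.0135, adjusted p = 1). Neither difference passed. Over all genes the smallest was *Adam39*, a testis disintegrin, with 1.97, 1.03, 2.51 and 1.53 in KO controls and 2.75, 2.78, 3.14 and 2.25 at KO day 5. None of these 8 signals was well above background. Its change was 0.97 in KO and -1.30 in WT. The limma interaction gave an unadjusted p = 0.000159 and an adjusted p = 1. *Il12b*, an interleukin subunit, and the unnamed transcripts TC1625511, AK087409 and NAP106303-1 followed, with limma unadjusted interaction p between 0.000471 and 0.0012 (adjusted p = 1), and 1 of their KO values at most was well above background for a gene. *Nfil3* had a KO change of -0.25 and a WT change of 2.26, with an interval of the difference from -4.89 to -0.12 (limma unadjusted p = 0.0401, adjusted p = 1).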

How the data were processed

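The authors hybridized total RNA from L4 and L5 DRGs to 12 Agilent 2-color arrays on 3 slides, with a different sample in each dye and 2 samples of every group in each dye. The deposited intensity values are the spot means and local background medians that Feature Extraction 10.7.3.1 wrote, per the file headers, with probes annotated to mm9. They had not been normalized between arrays. Samples were grouped by title, so KO control replicate 4 is a control although another label field says day 5. Here each channel was taken as 1 sample. Background was subtracted by the Edwards method, the 24 channels were quantile normalized, outlier spots were left out, and spots of a probe were averaged on the log2 scale (limma 3.58.1, R 4.3.3). All 24 samples entered one limma fit (lmFit, eBayes) in which each group had its own mean, and p-values were adjusted over 41174 probes by the Benjamini-Hochberg method, with a threshold of 0.05. The script was tested on simulated data.

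A gene is described by its brightest probe. Genes were named by rule: *Nfil3*, the 8 largest rises and 8 largest falls among called genes that were well above background in all 8 samples and did not overlap, the 4 largest changes by bound, up to 3 members of each gene list per direction by smallest p, and the 5 smallest interaction p-values. Other members, named to show the rest of a list, were picked with their values in view. The comparison, the gene lists and the marker lists were chosen with earlier results of these data known. Promoter windows came from RefSeq (GRCm38.p6). Alternatives were other background corrections (normexp with offset 50 and none), median foreground, loess, processed signals scaled by their 75th percentile, outliers kept, a filter on dim probes, averaged probes, dye, slide, array or replicate number in the model (statmod 1.5.0), a mean-variance trend, the compared samples alone, each slide alone and each sample left out. The precision is limited by 4 samples per group and by the signal over background. The sources give an n of 4 per genotype and condition, with control tissue from the non-injured side, and do not tie samples to mice. Control and injured samples may therefore come from the same mice, and p-values measure the spread between samples. Some named genes are not reported here.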

Additional observations from a re-analysis of the deposited data

Results flagged for a closer look

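Within groups of 4, a sample stood apart where its gap to the next sample, divided by the range of the group, exceeded Dixon's critical value at the 95% level. This held for 16 of 228 sets of a named gene and group and for 4 of 30 sets of a marker list and group, where chance gives about 1 in 20. The values given with each are that ratio and the log2 intensities.

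KO day 5 replicate 1 was the lowest day 5 sample for *Gal* (0.887, 15.51 against 15.94), *Kif22* (0.89, 13.53 against 13.86), *Odc1* (0.874, 13.85 against 14.21) and *Wfdc3* (0.837, 10.71 against 11.30), all of which rose, and the highest for *Calcb* (0.838, 11.80 against 11.16), which fell. In each of these genes it was the day 5 sample nearest to the controls. The sample labelled KO control replicate 4 was the highest control for *Gal* (0.893, 12.41 against 11.31) and *Bhlhe41* (0.887, 6.24 against 6.06). It was also highest in the mean of T and NK cell markers (0.864, 5.77 against 5.58) and lowest in that of non-myelinating and repair Schwann cell markers (0.833, 7.85 against 8.20).

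Other controls stood apart for *Atp5o* (0.879, replicate 2 at 15.48 against 15.30), *Ndufs3* (0.858, replicate 1 at 13.29 against 13.43) and *Smad1* (0.852, replicate 1 at 12.26 against 11.94). At day 5, replicate 2 was lowest for *Rab3c* (0.83, 8.65 against 8.75) and for central nervous system glia markers (0.865, 5.16 against 5.61). Replicate 3 was lowest for *Rora* (0.845, 7.57 against 7.90), *Scn2b* (0.869, 9.62 against 9.69) and the adipocyte markers (0.859, 5.54 against 6.82). Replicate 4 was highest for *Csta* (0.942, 10.34 against 10.12) and lowest for *Sstr2* (0.905, 5.25 against 5.52) and *Tm7sf2* (0.86, 12.37 against 12.48). No cause was tested for any of these.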

How the results depend on the processing

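The count of 3906 genes that differed between KO day 5 and KO control was 3127 to 4937 under the other settings that used all samples of both groups, and 2949 to 3625 when 1 sample was left out. It was 226 within slide 1 (216 higher, 10 lower) and 43 within slide 2 (43 higher, 0 lower). With only the KO controls that shared an array with another control, replicates 2 and 3, an alternative chosen after seeing the data, it was 2261, with 949 lower. These settings rest on fewer samples. The 313 genes that differed between day 5 and day 2 became 548 without background correction, 516 with normexp and 529 with array as a random block. They became 0 with only the samples of these groups, 0 within slide 1 and 0 within slide 2, and ranged from 164 to 372 when 1 sample was left out. The interaction had 0 genes, and 1 gene, *Nfil3*, without background correction and 1, again *Nfil3*, with normexp. The cause of these shifts was not tested.

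Of the values of single named genes under these settings, 2689 kept their call or lack of one and 268, in 92 genes, lost their call. Values of genes called in neither fit count as kept even where the sign changed. *Nfil3*, at -0.25 with all samples and 2.09 within slide 1, is an example. TC1625511 changed sign without background correction, to -0.01. Of genes that were not called, *Adam39* was at -0.01 without background correction and *Il12b* at -0.15 within slide 2. With normexp the changes of these genes were smaller, at 2.97 for *Ucn*, 4.05 for *Wfdc3*, 3.25 for *Csta*, 0.68 for *Il6*, 5.67 for *Npy*, 7.02 for *Sprr1a*, 2.93 for *Sox11*, 2.62 for *Mmp16*, 1.02 for *Cx3cr1*, -1.10 for *Htr3b*, -0.99 for *Kcnmb1*, -0.69 for *Glb1l2*, -0.65 for *Il17re*, -0.58 for *L3mbtl1* and -0.64 for *Sstr2*. Without the sample labelled KO control replicate 4, *Oprm1*, *Chrnb3*, *Trpv4*, *Mki67*, *Oas2*, *Fos*, *Creb1*, *Adipoq* and *Cadm1* did not pass. Same-numbered samples correlated at 0.317, 0.231, 0.286 and 0.0284 in their deviations from group means, over 24255 probes, and not every sample correlated best with its own number. Pairs of the same dye and different number correlated at -0.305, -0.0879, -0.0362 and 0.0239. The sample labelled KO control replicate 4 correlated best with KO day 5 replicate 2 (0.235), which shared its array. The sources do not tie samples to mice, so the number was not treated as a pairing. With replicate number as a block 4144 genes differed, 1903 higher and 2251 lower, and 322 between day 5 and day 2. Dim probes limit what can be seen for genes near background.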
